A study of Homo sapiens with 8 samples.

Results

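The cornified envelope is the protein shell that replaces the plasma membrane of a keratinocyte at the end of its differentiation. Precursor proteins such as involucrin and the small proline-rich proteins are joined by transglutaminases into an insoluble layer, and specialised lipids made by ceramide synthases, elongases, lipoxygenases and the transporter ABCA12 are fixed to its outer face and fill the space between cells. Many of the precursors are encoded side by side on chromosome 1 in the epidermal differentiation complex, and several of them are known for high expression in psoriatic skin. A set of 46 genes of this envelope and its lipids was followed here, chosen by symbol without keratins, S100 proteins and kallikreins. The deposited table lists 44 of them among 17131 genes, and 33 had enough counts to be tested among 12434 genes.

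The data are 8 RNA sequencing libraries of HaCaT cells, a single established line of human keratinocytes labelled as wild type, with 4 libraries titled M5_O5 and 4 titled M5. All 8 cultures received M5, a mixture of 5 cytokines (oncostatin M, TNF-α, IL-1α, IL-17A and IL-22) at 10 ng/mL for 24 h, and one group was also exposed to OTS514, an inhibitor of the kinase TOPK, at 10 nM with 12 h of preincubation, so that the comparison asks which genes change with the inhibitor in stimulated cells. The labels do not agree on which group that was. The libraries titled M5 carry the inhibitor as their entered treatment, the libraries titled M5_O5 carry no treatment, and the term O5 is not explained. All directions below are therefore given between titles: a gene lower in M5_O5 was higher in inhibited cells if the entered treatment is right, and lower in them if the titles mark the inhibited cells. No culture without cytokines was analysed here. Nothing states whether replicates were separate cultures, so p-values measure only the spread between these libraries.

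Total counts ranged from 13708055 to 16922693 per library, and the 46 genes held between 0.171% and 0.231% of them. M5 replicate 1 had the lowest total and stood apart from the other M5 libraries, with a chi-square per gene of 9.91 to 15.7 against them compared with at most 3.92 among them. It is shown apart below. M5_O5 replicate 1 also differed from its group, at 6.83 to 10.6, although M5_O5 replicates 3 and 4 differed by as much, at 6.85. All 6 keratinocyte markers were present, with a summed level of 17157 to 20865 TPM, a count per length scaled to a fixed sum in each library, in M5_O5 and 19554 to 21313 in M5. Of the 4 leukocyte markers, PTPRC was at 0 in every library, but CD14 was at 44.8 to 54.3 TPM and made up nearly all of a sum of 45.2 to 55.0 TPM in M5_O5 and 49.8 to 52.9 TPM in M5. The 5 fibroblast markers summed to 10.3 to 10.8 TPM in M5_O5 and 13.0 to 15.3 TPM in M5, almost all from COL1A1, and the part of this shift in the results below was not tested. PBK, the gene of TOPK, was higher in M5_O5 by 1.32 ± 0.34 on the log2 scale (SE, adjusted p = 0.00738), but its groups overlapped because M5 replicate 1 reached 2.63 CPM, counts scaled to the same library size, against at most 0.987 in the other M5 libraries. An inhibitor of a kinase need not change its mRNA, so PBK does not check the labels. In these bulk libraries, fewer expressing cells and less RNA per cell cannot be told apart.

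The mRNAs of envelope genes were more often lower than higher in the libraries titled M5_O5. The lower ones were led by the late envelope genes LCE3D and LCE3E, the small proline-rich genes of the SPRR2 family and the involucrin gene IVL. The filaggrin gene FLG and 2 further genes were higher. Proteins were not measured in these libraries. Of the 33 genes tested, 16 were lower and 3 were higher in M5_O5 at an adjusted p under 0.05 (edgeR's quasi-likelihood test over all genes), and 14 did not pass. The share lower was 48.5%, beside 17.6% of all genes tested, and the share higher was 9.09%, beside 19.5%. LCE3D and LCE3E also passed a 2-fold threshold, which 3.2% of all genes did. The 2 groups of 4 libraries did not overlap for 15 of the 33 genes, 45.5% beside 33.6% of all genes, with M5_O5 below for 12 and above for 3. The median log2 fold change, M5_O5 over M5, was -0.27 for the 33 genes and 0.01 for all genes tested. Scaling by library size alone moved the median of all genes to 0.13. It gave 6 genes of the set higher and 13 lower, beside 3858 and 1008 of all 12434 genes. With limma on log2(TPM + 1), 5 were higher and 13 lower, beside 3261 and 761 of all genes. Each setting tested 28 to 44 genes of the set. Their median stayed 0.26 to 0.33 below that of all genes under every setting tried. All 19 genes passed again without M5 replicate 1, and TGM1 and CERS3 were added.

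**Figure D1:**
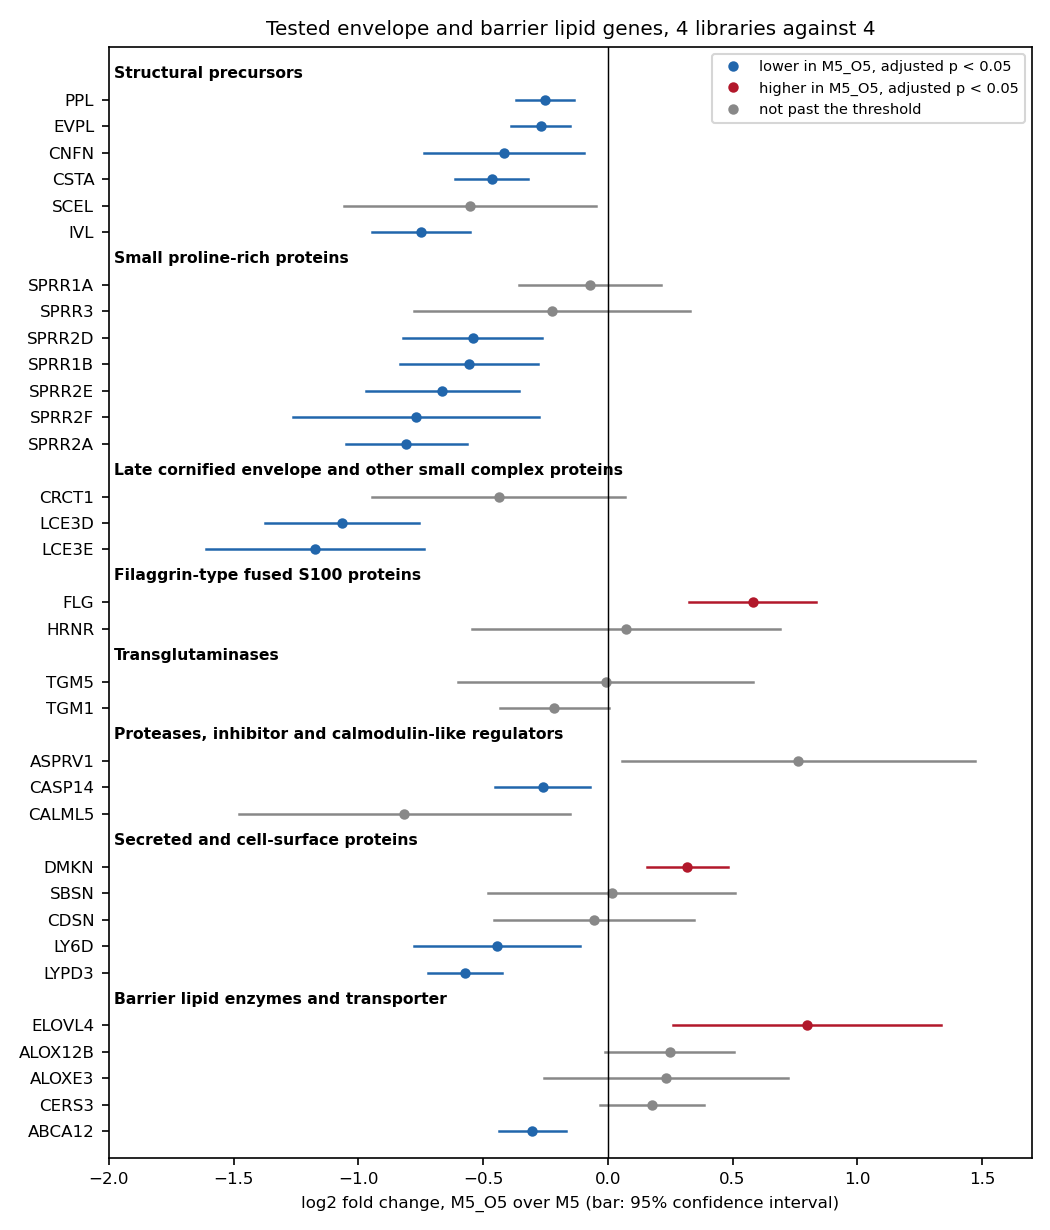
Log2 fold change of the 33 tested genes, libraries titled M5_O5 over those titled M5 (x axis), by role (y axis), with 95% confidence intervals from 4 libraries against 4. Colours mark genes past an adjusted p of 0.05; LCE3E at -1.17 and LCE3D at -1.07 lie furthest to the left, and FLG, DMKN and ELOVL4 are the genes past the threshold to the right.

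The 250 bases before the transcription start are shown for IVL, SPRR2A and both LCE3 genes, which represent the precursor, small proline-rich and late envelope genes that were lower in M5_O5, beside FLG from the same complex, which was higher. The sequences are from RefSeq on GRCh38.p14, read 5′ to 3′ on the strand of the gene, and capitals mark matches on either strand to AP-1 (TGANTCA), STAT (TTCNNNGAA), GRHL (AACNGGTT), the TATA box (TATAAA) or ETS (CAGGAAG). In IVL the AP-1 and ETS matches share bases and form a single run of capitals. The windows lie at chr1:152908296-152908545 on the plus strand for IVL, and on the minus strand at chr1:153057513-153057762 for SPRR2A, chr1:152580517-152580766 for LCE3D, chr1:152566781-152567030 for LCE3E and chr1:152325240-152325489 for FLG.
IVL: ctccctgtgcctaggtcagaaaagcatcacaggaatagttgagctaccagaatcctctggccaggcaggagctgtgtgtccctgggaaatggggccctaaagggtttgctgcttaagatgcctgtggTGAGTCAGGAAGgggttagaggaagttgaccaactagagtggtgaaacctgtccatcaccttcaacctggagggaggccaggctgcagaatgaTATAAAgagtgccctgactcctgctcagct
SPRR2A: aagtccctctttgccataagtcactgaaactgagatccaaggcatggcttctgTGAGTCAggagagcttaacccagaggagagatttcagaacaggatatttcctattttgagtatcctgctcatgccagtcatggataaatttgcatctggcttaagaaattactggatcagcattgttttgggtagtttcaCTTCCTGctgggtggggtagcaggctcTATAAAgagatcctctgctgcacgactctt
LCE3D: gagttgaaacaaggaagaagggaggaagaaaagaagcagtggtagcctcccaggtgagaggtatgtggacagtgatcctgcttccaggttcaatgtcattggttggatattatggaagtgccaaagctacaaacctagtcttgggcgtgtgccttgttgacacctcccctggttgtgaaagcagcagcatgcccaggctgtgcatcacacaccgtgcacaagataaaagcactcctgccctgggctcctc
LCE3E: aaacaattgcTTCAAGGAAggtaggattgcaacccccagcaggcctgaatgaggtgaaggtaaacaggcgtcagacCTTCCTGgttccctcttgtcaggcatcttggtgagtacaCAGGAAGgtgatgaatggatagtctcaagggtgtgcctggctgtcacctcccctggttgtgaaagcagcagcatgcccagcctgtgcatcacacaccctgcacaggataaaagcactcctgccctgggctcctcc
FLG: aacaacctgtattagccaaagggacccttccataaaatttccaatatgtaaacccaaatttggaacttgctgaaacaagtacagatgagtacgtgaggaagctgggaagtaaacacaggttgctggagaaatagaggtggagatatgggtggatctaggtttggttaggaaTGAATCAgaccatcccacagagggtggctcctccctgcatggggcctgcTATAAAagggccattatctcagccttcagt
The AP-1 letters begin 123 bases before the start in IVL, 197 before it in SPRR2A and 79 before it in FLG. LCE3D and LCE3E have no AP-1 match in these 250 bases, and aligned to each other at 182 identical bases of 233 aligned. With gaps counted this was 68.2% of the alignment, beside 45.9% to 51.6% for the other pairs of these windows.

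Windows were given for 37 of the 46 genes, 50 windows in all. AP-1 letters occurred in 18 of these 50 windows, 36.0%, beside 6.57% of 35116 windows of all genes. Among the 11 windows of 10 genes lower in M5_O5 they occurred in 5, and among the 5 windows of 3 genes higher in M5_O5 in 3. Those 3 windows belong to FLG and DMKN only. The letters were thus found on both sides of the comparison, in very few genes on the higher side. TATA letters occurred in 13 of the 50 windows, 26.0%, beside 10.7% of all windows, and ETS letters in 9, 18.0%, beside 10.5%. STAT letters occurred in 2 windows, 4.0%, beside 6.57% of all windows, and GRHL letters also in 2, beside 1.49%. Split the same way, ETS letters were in 4 of the 11 lower and 0 of the 5 higher windows, and TATA letters in 3 and 1. STAT letters were in 1 and 1, and GRHL letters in 0 and 0. Several of these windows belong to the same gene or to neighbouring copies of the same family and are not independent. A match is a description of letters, not of a bound site.

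Structural precursors form the scaffold of the envelope. Of the 6 tested, 5 were lower in M5_O5, 83.3% beside 17.6% of all genes tested, and SCEL did not pass. IVL encodes involucrin, an early precursor laid down beneath the membrane. It stood at 12.3, 12.6, 14.2 and 11.9 CPM in M5_O5 replicates 1 to 4 and at 22.9, 23.8, 19.5 and 19.7 CPM in M5 replicates 1 to 4. Every M5_O5 library was below every M5 library, and the M5_O5 level was 59.4% of the M5 level (log2 fold change -0.75 ± 0.09 SE, adjusted p = 3.71e-05). CSTA encodes cystatin A, a protease inhibitor that is crosslinked into the envelope. It was at 143, 140, 129 and 163 CPM in M5_O5 and at 203, 189, 207 and 195 CPM in M5, again without overlap (-0.47 ± 0.07, adjusted p = 0.000149). For both genes M5 replicate 1 lay among the other M5 libraries.

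Envoplakin and periplakin, encoded by EVPL and PPL, are plakins that tie the early envelope to desmosomes and keratin filaments. EVPL counted 148, 151, 154 and 137 CPM in M5_O5 and 177, 188, 169 and 177 CPM in M5 (-0.27 ± 0.06, adjusted p = 0.00181). PPL had 414, 451, 446 and 416 CPM in M5_O5 and 488, 534, 521 and 515 CPM in M5 (-0.25 ± 0.05, adjusted p = 0.00252). The groups did not overlap for either plakin, but the differences were small: EVPL did not pass with limma on log2(TPM + 1), at -0.14 (adjusted p = 0.113), and PPL did not pass once a trend on expression level was removed, at -0.10 (adjusted p = 0.103). CNFN, cornifelin, is a minor envelope component. Its levels were 2.96, 2.47, 2.37 and 2.67 CPM in M5_O5 and 2.99, 3.92, 3.49 and 3.55 CPM in M5, at 40 to 60 counts per library. The groups did not overlap but nearly met, at 2.96 CPM in M5_O5 replicate 1 and 2.99 CPM in M5 replicate 1, and the difference of -0.42 ± 0.15 (adjusted p = 0.0423) did not pass when any of M5_O5 replicates 2, 3 and 4 or M5 replicates 2, 3 and 4 was left out, with the adjusted p then between 0.0737 and 0.119, nor with DESeq2 (adjusted p = 0.0863). SCEL, sciellin, another precursor, was at 2.2 to 3.78 CPM in M5_O5 and 3.05 to 6.28 CPM in M5, and its difference of -0.55 (adjusted p = 0.0799) passed only without M5_O5 replicate 1 among the libraries left out, at -0.74 (adjusted p = 0.0311). The mRNA of loricrin, the main precursor of the mature epidermal envelope, was near absent. LORICRIN had at most 3 counts in any library and was not tested.

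**Figure D2:**
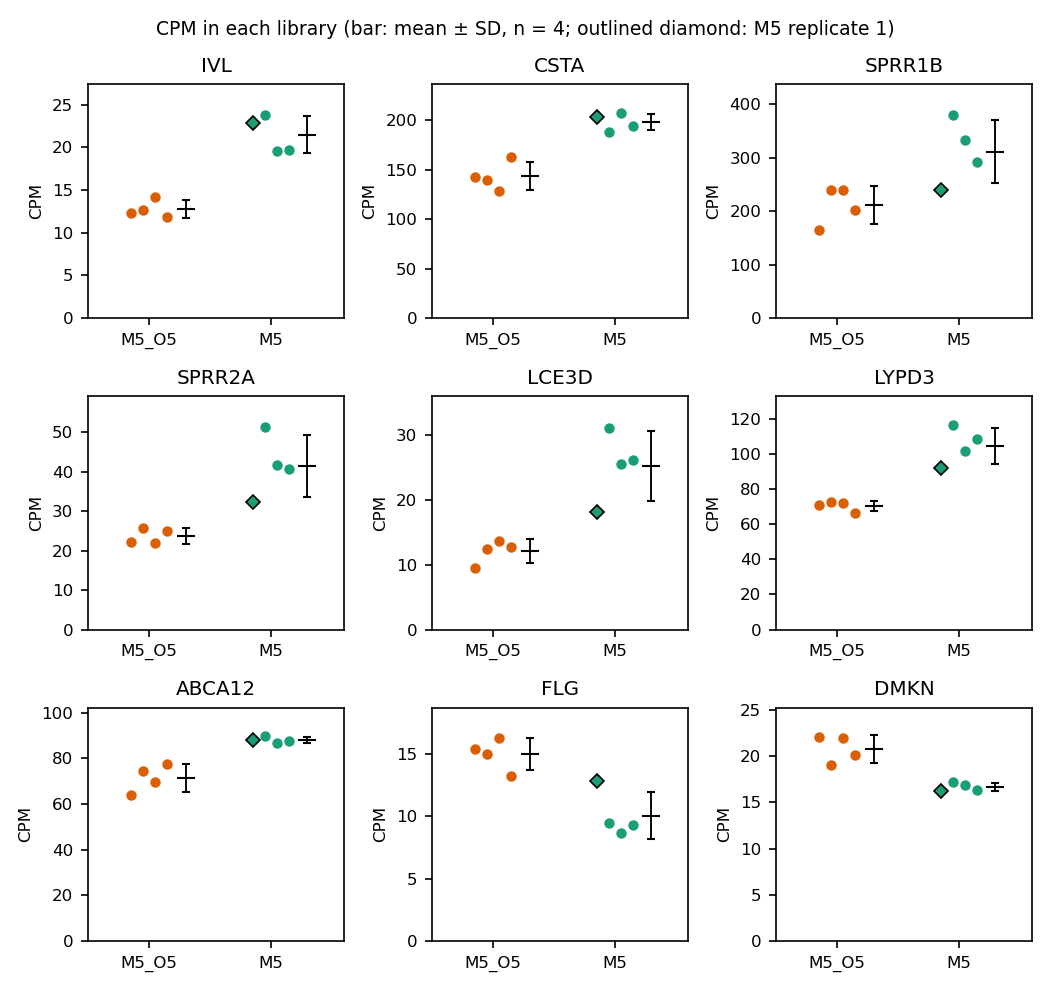
CPM (y axis, from 0) of 9 genes in each of the 4 libraries titled M5_O5 and the 4 titled M5 (x axis), with the mean and SD of each group; the diamond is M5 replicate 1. IVL and CSTA separate with M5 replicate 1 among the other M5 libraries, whereas in SPRR1B, SPRR2A, LCE3D and FLG that library lies nearest to M5_O5.

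Small proline-rich proteins are short bridges that transglutaminases build between other precursors. Of the 7 SPRR genes tested, 5 were lower in M5_O5, 71.4% beside 17.6% of all genes tested, and SPRR1A and SPRR3 did not pass. Genes of a family are near copies, so these are not independent results. SPRR1B was at 165, 239, 240 and 202 CPM in M5_O5 and at 240, 379, 333 and 292 CPM in M5 (-0.56 ± 0.13, adjusted p = 0.00413). Its groups touched, since M5 replicate 1 at 239.7 CPM fell just under the highest M5_O5 library at 239.8 CPM, and without that library the difference was -0.66. Its neighbour SPRR1A was at 66.3 to 104 CPM in M5_O5 and 74.1 to 114 CPM in M5, a difference of -0.07 (95% confidence interval -0.36 to 0.21). The interval of SPRR1A reaches down to the upper part of that of SPRR1B, which runs from -0.83 to -0.28, and the difference between the 2 genes was not tested.

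The 4 SPRR2 genes tested were all lower. SPRR2A, the most abundant of them, was at 22.1, 25.7, 22.0 and 25.0 CPM in M5_O5 and at 32.3, 51.3, 41.6 and 40.7 CPM in M5 (-0.81 ± 0.11, adjusted p = 0.000108). SPRR2E was at 10.3, 8.73, 9.66 and 7.55 CPM in M5_O5 and at 10.9, 18.4, 13.5 and 14.6 CPM in M5 (-0.66 ± 0.14, adjusted p = 0.0025). SPRR2D was at 5.52, 5.51, 4.92 and 4.40 CPM in M5_O5 and at 5.99, 8.03, 8.16 and 7.41 CPM in M5 (-0.54 ± 0.13, adjusted p = 0.00502). These 3 genes separated the groups completely, each with M5 replicate 1 as the lowest M5 library. SPRR2F, at 17 to 42 counts per library, had 1.57, 1.26, 1.01 and 1.07 CPM in M5_O5 and 1.39, 2.09, 2.24 and 2.62 CPM in M5, so that M5 replicate 1 lay inside the M5_O5 range. Its difference of -0.77 ± 0.23 (adjusted p = 0.0173) did not pass without M5_O5 replicate 3 (adjusted p = 0.0534), M5_O5 replicate 4 (adjusted p = 0.0511) or M5 replicate 4 (adjusted p = 0.0702). SPRR3, at 15 to 34 counts, differed by -0.22 (adjusted p = 0.524), and SPRR2B and SPRR2G, with at most 9 and 4 counts, were not tested.

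SPRR genes of a family are near copies, between which the authors' counting may have divided reads. All counts of SPRR2A, SPRR2D and SPRR2E came from fractional transcript values. So did 56.7% of those of SPRR2F, 90.5% of those of SPRR1A and 15.2% of those of SPRR1B. All counts of EVPL, PPL and ABCA12, which are not of these families, were also fractional, so these shares do not measure division between copies. The split between single copies is uncertain, and the families were also summed before the test. The 6 SPRR2 genes together were at 39.5, 41.7, 38.0 and 38.3 CPM in M5_O5 and at 50.8, 80.3, 66.3 and 65.6 CPM in M5 (-0.74 ± 0.10, adjusted p = 0.000108). The pair of SPRR1 genes together was at 232, 343, 340 and 296 CPM in M5_O5 and at 314, 494, 431 and 388 CPM in M5 (-0.43 ± 0.13, adjusted p = 0.0188). The SPRR2 sum separated the groups, and the SPRR1 sum did not, because M5 replicate 1 lay inside the M5_O5 range.

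Late cornified envelope proteins are added to the envelope in the uppermost layers, and the LCE3 group is known from skin injury and from a deletion linked to psoriasis. Both LCE3 genes tested were lower in M5_O5 by more than 2-fold. LCE3D was at 9.47, 12.5, 13.7 and 12.7 CPM in M5_O5 and at 18.2, 31.2, 25.6 and 26.2 CPM in M5, so that M5_O5 stood at 47.8% of M5 (-1.07 ± 0.14, adjusted p = 7.99e-05). LCE3E was at 4.88, 9.42, 8.18 and 7.55 CPM in M5_O5 and at 10.7, 22.5, 16.5 and 17.9 CPM in M5, at 44.3% (-1.17 ± 0.20, adjusted p = 0.000558). Neither gene overlapped between groups, and replicate 1 was the lowest library of each title for both. All counts of both genes came from fractional transcript values, and their sum was also lower (-1.11 ± 0.16, adjusted p = 0.000137). Without M5 replicate 1 the differences grew to -1.19 for LCE3D and -1.34 for LCE3E. That of LCE3D was short of 2-fold without M5 replicate 2 (-0.95), without M5_O5 replicate 1 (-0.97), with scaling by library size alone (-0.95) and with limma on log2(TPM + 1) (-0.92) or log2(TPM + 0.1) (-0.93), while that of LCE3E stayed beyond -1 in all of these. CRCT1, a small cysteine-rich protein of the same complex, differed by -0.44 (adjusted p = 0.193) at 11 to 18 counts. LCE3A and LCE3C are not listed in the table, and KPRP had at most 1 count.

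**Figure D3:**
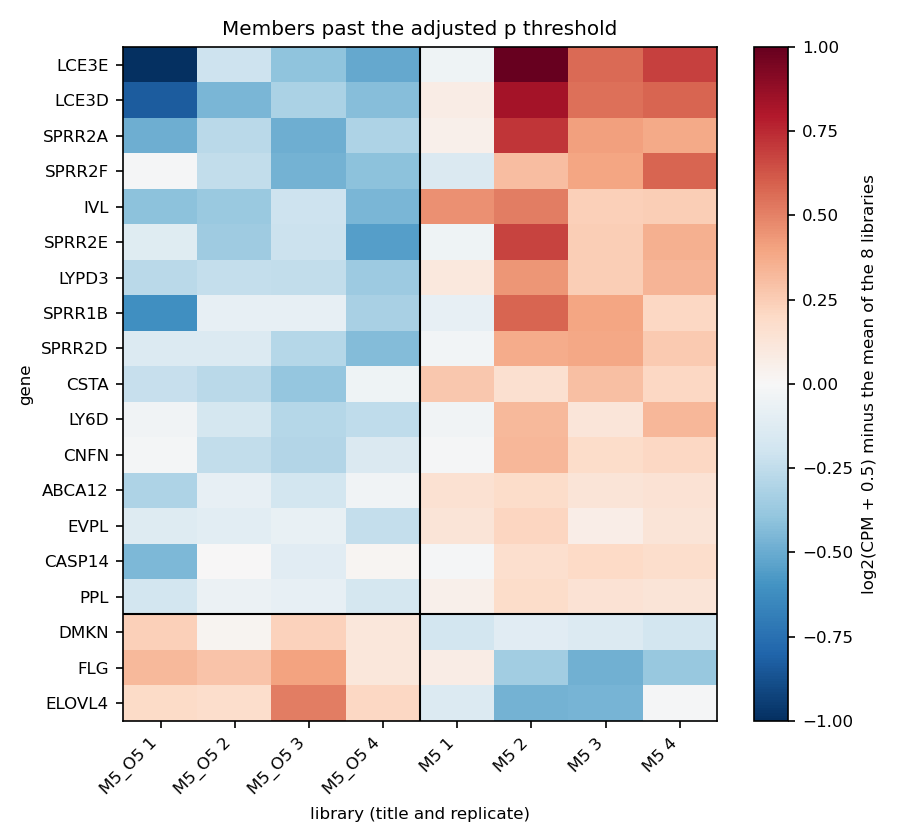
The 19 genes past the adjusted p threshold (y axis) in the 8 libraries (x axis), as log2(CPM + 0.5) minus the mean of the 8 libraries, with the colour scale ending at -1 and 1. The 16 genes lower in M5_O5 lie above the horizontal line, where M5 replicate 1 is paler than the other M5 libraries for most SPRR and LCE3 genes but not for IVL or CSTA.

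Filaggrin and its relatives are large fused S100 proteins that bundle keratin and later yield the moisturising factors of the horny layer. FLG was higher in M5_O5, while the genes of the complex that were lower lay further along it, from LCE3E onward. It was at 15.4, 15, 16.3 and 13.3 CPM in M5_O5 and at 12.8, 9.47, 8.62 and 9.28 CPM in M5. All M5_O5 libraries were above all M5 libraries, with M5 replicate 1 close below the lowest of them, and the M5_O5 level was 1.5-fold that of M5 (0.58 ± 0.12, adjusted p = 0.0018). The difference was 0.71 without M5 replicate 1 and at least 0.51 without any other library. Per length the gene was weakly expressed, at 1.96 TPM in M5_O5 and 1.22 TPM in M5. A long non-coding RNA, CCDST, overlaps it on the other strand and is not listed in the table, and the strand setting of the counting is not given in the sources used here. HRNR, hornerin, differed by 0.07 (95% confidence interval -0.54 to 0.69) at 8 to 24 counts, and FLG2 and RPTN, with at most 10 and 6 counts, were not tested.

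Transglutaminases form the crosslinks. TGM1, the membrane-bound enzyme of the envelope, was abundant at 303, 389, 404 and 336 CPM in M5_O5 and at 341, 482, 423 and 416 CPM in M5. The groups overlapped, each with replicate 1 as its lowest library, and the difference of -0.22 ± 0.10 did not pass (adjusted p = 0.112). Without M5 replicate 1 it was -0.30 and passed (adjusted p = 0.0101). TGM5 differed by -0.01 (95% confidence interval -0.60 to 0.58) at 12 to 31 counts, and TGM3 had at most 2 counts.

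Proteases and regulators act on the envelope and on filaggrin. CASP14, a caspase of cornifying keratinocytes that takes part in filaggrin breakdown, was at 84.0, 115, 106 and 116 CPM in M5_O5 and at 114, 129, 132 and 130 CPM in M5. M5 replicate 1 lay inside the M5_O5 range, and M5_O5 replicate 1 was well below all other libraries. The difference of -0.26 ± 0.09 (adjusted p = 0.0324) did not pass without M5_O5 replicate 1 or 3 or without M5 replicate 2, 3 or 4 (adjusted p between 0.0574 and 0.0876), nor with scaling by library size (adjusted p = 0.188). The other 2 genes tested in this group had few counts and did not pass. ASPRV1, the protease that trims profilaggrin, was at 0.830 to 0.872 CPM in M5_O5 and at 0.261 to 0.872 CPM in M5, and its difference of 0.76 (adjusted p = 0.0838) became 1.21 without M5 replicate 4 (adjusted p = 0.016). ASPRV1 lies within the span of MXD1, on the other strand, which had up to 8843 counts. CALML5, a calmodulin-like protein of differentiating keratinocytes, differed by -0.82 (adjusted p = 0.0516) at 8 to 22 counts, and passed without M5_O5 replicate 1 at -1.03 (adjusted p = 0.0308) or without M5 replicate 4 at -1.01 (adjusted p = 0.0216). CALML3 and the protease inhibitor CST6, with at most 8 and 5 counts, were not tested.

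Among the genes of secreted and cell-surface proteins, LYPD3 and LY6D were lower and DMKN was higher in M5_O5. LYPD3, the adhesion protein C4.4A of suprabasal keratinocytes, was at 70.7, 72.4, 71.9 and 66.3 CPM in M5_O5 and at 91.8, 116, 102 and 108 CPM in M5. The M5_O5 libraries lay close together and below every M5 library (-0.57 ± 0.07, adjusted p = 3.24e-05), and this was the smallest adjusted p of the 33 genes. LY6D, a membrane-anchored protein of the same superfamily, was at 2.85, 2.53, 2.31 and 2.38 CPM in M5_O5 and at 2.85, 3.79, 3.22 and 3.8 CPM in M5. M5 replicate 1 lay inside the M5_O5 range, and the difference of -0.44 ± 0.16 (adjusted p = 0.0372) did not pass without any of M5_O5 replicates 2, 3 and 4 or M5 replicates 2, 3 and 4 (adjusted p between 0.057 and 0.113), nor with DESeq2 (adjusted p = 0.0726).

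DMKN encodes dermokine, a secreted protein of differentiated keratinocytes with many transcript forms. It was at 22.1, 19.0, 21.9 and 20.1 CPM in M5_O5 and at 16.3, 17.2, 16.9 and 16.3 CPM in M5, with every M5_O5 library above every M5 library (0.32 ± 0.08, adjusted p = 0.00481). On the TPM scale the difference was larger, at 67.4 ± 6.77 TPM in M5_O5 and 45.2 ± 4.45 TPM in M5 (SD, n = 4) and 0.57 by limma on log2(TPM + 0.1). Part of this is general, since the median of all genes was 0.13 in that fit and 0.01 in the main fit. The table gives 37 transcripts for DMKN, and the leading one held 17.3% of its TPM. CDSN, corneodesmosin, which holds corneocytes together, differed by -0.06 (95% confidence interval -0.46 to 0.34), and SBSN, suprabasin, by 0.01 (95% confidence interval -0.48 to 0.51). KRTDAP, with at most 11 counts, was not tested.

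The barrier lipid genes did not share a direction: ABCA12 was lower, ELOVL4 was higher, and the other 3 tested did not pass. ABCA12 moves glucosylceramide into lamellar granules. It was at 63.8, 74.7, 69.7 and 77.5 CPM in M5_O5 and at 88, 90, 86.7 and 87.7 CPM in M5. The M5 libraries lay close together and above all M5_O5 libraries (-0.30 ± 0.06, adjusted p = 0.00197), although the gene did not pass with limma on log2(TPM + 1), at -0.17 (adjusted p = 0.124). ELOVL4, the elongase that makes the ultra-long fatty acids of skin ceramides, was at 1.22, 1.21, 1.66 and 1.25 CPM in M5_O5 and at 0.876, 0.588, 0.592 and 0.997 CPM in M5. The groups did not overlap (0.80 ± 0.25, adjusted p = 0.0224), but at 9 to 28 counts per library the gene did not pass with DESeq2 (adjusted p = 0.0674), without M5_O5 replicate 3 (adjusted p = 0.0709), without M5 replicate 2 (adjusted p = 0.0718) or without M5 replicate 3 (adjusted p = 0.0737).

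The lipoxygenases ALOX12B and ALOXE3, which oxidise the linoleate of these ceramides, differed by 0.25 (adjusted p = 0.122) and by 0.23 (adjusted p = 0.444). ALOX12B was at 6.83 to 8.90 CPM in M5_O5 and 5.69 to 7.11 CPM in M5, and passed with scaling by library size alone, at 0.37 (adjusted p = 0.0249). CERS3, the ceramide synthase for these chain lengths, was at 23.9 to 29.9 CPM in M5_O5 and 21.2 to 27.4 CPM in M5, where M5 replicate 1 was the highest. Its difference of 0.18 (adjusted p = 0.174) was 0.26 without that library (adjusted p = 0.0271). PNPLA1, which transfers linoleate onto the ceramides, had at most 7 counts.

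Levels of different genes can be set side by side only per length. In TPM, SPRR1B was the highest of the set, at 1151 in M5_O5 and 1543 in M5, and its lowest library, at 894 TPM, was above the highest of any other gene. CSTA followed at 553 and 703 TPM, SPRR1A at 444 and 425 TPM and TGM1 at 240 and 255 TPM. CSTA and SPRR1A overlapped across libraries, at 483 to 789 and 322 to 512 TPM, and TGM1, at 213 to 280 TPM, lay below both. SPRR2A, PPL and LYPD3 overlapped next in order, at 98.2 to 204, 117 to 135 and 83.3 to 124 TPM. Both LCE3 genes were well expressed per length, LCE3D at 64.5 and 123 TPM and LCE3E at 40.3 and 82.2 TPM, whereas IVL was at 11.4 and 17.6 TPM. At the low end, CDSN, SCEL, FLG, SBSN, ALOXE3, TGM5, ASPRV1, ELOVL4 and HRNR were below 2 TPM on average, and LORICRIN was at 0.07 and 0.16 TPM.

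**Figure D4:**
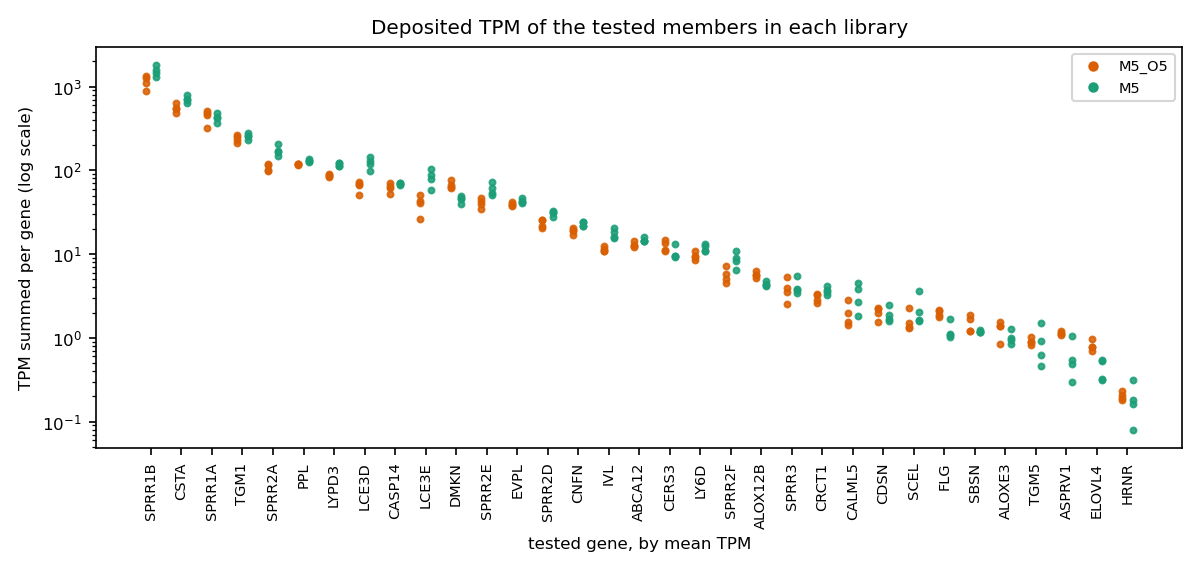
Deposited TPM summed per gene (y axis, log scale) for the 33 tested genes in order of mean TPM (x axis), with 1 point per library and the 2 titles side by side. SPRR1B is above every other gene in all 8 libraries, and the M5 points of LCE3D and LCE3E stand above their M5_O5 points.

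The position of M5 replicate 1 differed between genes. Of the 16 genes lower in M5_O5, it was nearer to M5_O5 than every other M5 library in 12, and inside the M5_O5 range in 4 of those, SPRR1B, SPRR2F, CASP14 and LY6D. In IVL, EVPL, CSTA and ABCA12 it lay among the other M5 libraries. Of the 3 higher genes it was the nearest M5 library in FLG only. How often it was the nearest over all genes was not counted. Since M5 replicate 1 stood apart over the whole table, these counts are not particular to the set.

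Along chromosome 1, 21 of the 46 genes lie in the epidermal differentiation complex, and 13 of them were tested: 8 were lower and FLG was higher. Of the 20 tested genes that lie elsewhere, 8 were lower and 2 were higher. Over all genes tested, 17.6% were lower and 19.5% higher. The complex also holds 23 genes outside the set, of which 7 were tested and 4 were lower. Among these, LCE1E, a late envelope gene of a group usually found in intact skin, was lower by -1.13 ± 0.29 (adjusted p = 0.00765), LCE1F by -0.90 ± 0.26 (adjusted p = 0.0151) and PRR9 by -0.49 ± 0.16 (adjusted p = 0.0282). Both LCE1 genes had few reads. LCE1E was at 0.287 to 0.773 CPM in M5_O5 and 0.949 to 1.25 CPM in M5, and LCE1F at 0.474 to 1.03 and 1.18 to 1.83 CPM. The lower genes lay from LCE3E to PGLYRP3 in gene order. Within that stretch SPRR4, at 0.46 (adjusted p = 0.133), SPRR1A, at -0.07 (0.699), and SPRR3, at -0.22 (0.524), did not pass. On one side of it lay FLG, the only gene of the complex that passed as higher. HRNR, at 0.07 (0.864), and TCHH, at 0.30 (0.170), lay on that side and did not pass.

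**Figure D5:**
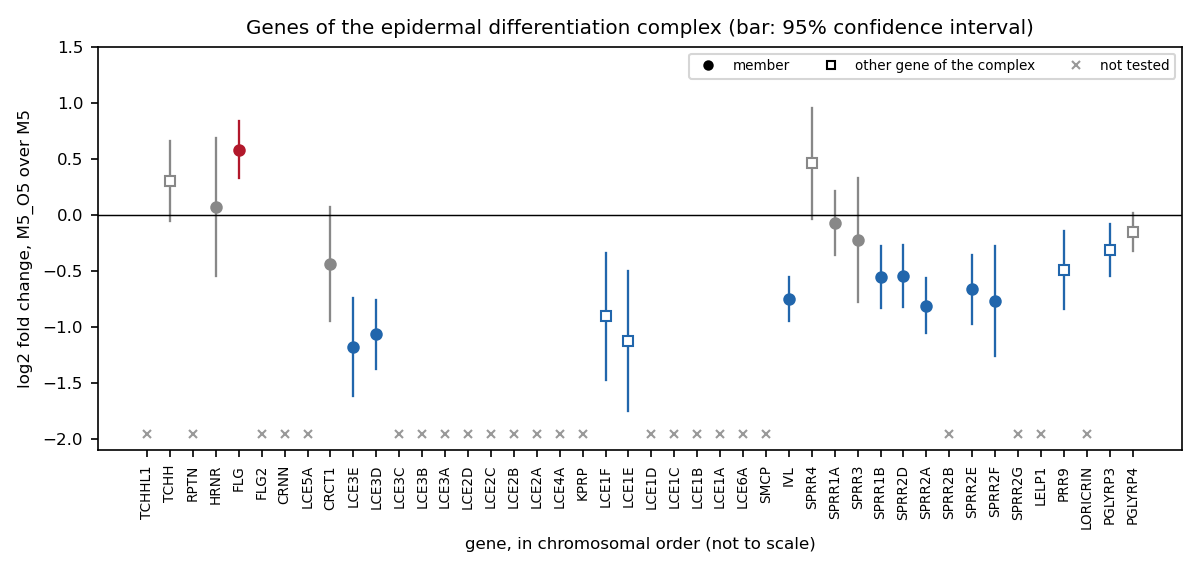
Log2 fold change, M5_O5 over M5, with 95% confidence intervals (y axis) for genes of the epidermal differentiation complex in chromosomal order, not to scale (x axis). Filled circles are genes of the set, open squares other genes of the complex, crosses genes not tested and blue or red genes past an adjusted p of 0.05; FLG at 0.58 is the red point, and the blue points run from LCE3E to PGLYRP3.

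Genes with related roles outside the set differed by list, against 17.6% lower and 19.5% higher in M5_O5 over all genes tested. Of 29 other barrier lipid genes tested, 8 were higher and 8 lower in M5_O5, with a median of -0.06. Those with the smallest adjusted p were ELOVL6, an elongase of common fatty acids (1.62 ± 0.21, adjusted p = 5.78e-05), GM2A, a lipid carrier of lysosomes (0.41 ± 0.05, adjusted p = 2.67e-05), and ASAH1, acid ceramidase (0.42 ± 0.07, adjusted p = 0.000447), among the higher, and NIPAL4, linked to ichthyosis (-0.53 ± 0.08, adjusted p = 0.00019), SLC27A4, a fatty acid transporter (-0.33 ± 0.07, adjusted p = 0.00198), and SULT2B1, the cholesterol sulfotransferase (-0.59 ± 0.13, adjusted p = 0.00334), among the lower. Of 21 other genes of crosslinking and shedding, 8 were lower and only TMEM45A was higher (0.27 ± 0.07, adjusted p = 0.00705), with a median of -0.16 for the 21. TGM2, the tissue transglutaminase, was lower by -0.96 ± 0.10 (adjusted p = 1.44e-05). The inhibitors SERPINB5 (-0.39 ± 0.06, adjusted p = 0.000171) and SLPI (-0.46 ± 0.07, adjusted p = 0.000187) were also lower. Of the 6 keratinocyte markers, 3 were lower and 3 did not pass. Their median was -0.20, beside -0.27 for the 33 tested genes of the set and 0.01 for all genes tested.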

How the data were processed

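RNA of 8 HaCaT libraries was prepared with a SMARTER mRNA kit and sequenced, and groups were taken from the titles. According to the study's methods, reads were filtered, mapped by the authors in HISAT2 and counted in StringTie. Per the labels, the submitters' processing notes name HISAT2 2.1.0, Bowtie2 2.2.5 and RSEM 1.2.8 and the mouse build mm10, although the identifiers are human RefSeq transcripts. The authors deposited estimated counts per transcript, which are not normalized, with TPM (scaled to a fixed sum per library) and FPKM (per length and library size, not used here); the authors' mean columns were not used. The table lists 86639 coding transcripts, 4181 of them further placements, and 53.8% of the estimated counts were fractional.

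Counts were summed per gene and rounded. Symbols came from the RefSeq table of GRCh38.p14, which matched 17072 of 17131 identifiers, and the 59 others held at most 0.0201% of a library. Genes were filtered with filterByExpr, scaled by TMM and compared with the quasi-likelihood test of edgeR 4.0.16 (R 4.3.3), with Benjamini-Hochberg adjustment over 12434 genes. The biological coefficient of variation was 7.42%. CPM are counts divided by the library size after TMM scaling, on the scale edgeR uses, and a standard error is the log2 fold change over the root of its F statistic. A 2-sided exact permutation test of 4 libraries against 4 cannot go below p = 0.0286. Alternatives were other scalings and filters, DESeq2 1.42.0, limma 3.58.1 on TPM, the replicate number as a block, families summed and each library left out.

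The 46 genes and all lists were chosen with earlier results of these data known. Values in every library are given for genes past the adjusted p threshold with a mean of at least 1 CPM and, for a role with none, for its highest gene (TGM1). Genes outside the set are PBK, the cell type markers and, from each of the other barrier lists, the 3 with the smallest adjusted p in each direction. The promoter windows were searched in the 250 bases before the start. On simulated counts for the same comparison with 12434 genes, edgeR recovered 97 of 100 genes planted at a log2 change of 1 and 97 of 100 at 2, and called 13 unchanged genes. With a trend on expression level planted as well, it called 2059 unchanged genes, and 4 once the trend was removed. Removing such a trend was one of the alternatives. The simulations planted changes of 1 and 2 in single genes, with the same spread for every gene and no library standing apart. They do not show how often smaller differences, such as most of those above, are recovered. All pairs of replicates differed by more than sampling noise, and all libraries were kept.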

Additional observations from a re-analysis of the deposited data

Results flagged for a closer look

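ELOVL4 in M5_O5 replicate 3 stood at 1.66 CPM, above 1.21 to 1.25 CPM in the other 3 M5_O5 libraries. This was 1 of 72 groups of 4 values checked for a single library far from the rest, where chance alone flags about 1 in 20, or 3.6. Without that library ELOVL4 did not pass the threshold, at 0.68 on the log2 scale (adjusted p = 0.0709).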

How the results depend on the processing

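No gene tested and no count turned its direction among the genes past the threshold. The 3 genes higher became 6 with scaling by library size alone and 5 with limma on log2(TPM + 1) or log2(TPM + 0.1). They became 2 with a trend on expression level removed, with DESeq2 and with at least 10 counts in every library. The 16 genes lower became 13 with scaling by library size alone and with either limma fit, and 14 with DESeq2 or no filter on counts. They became 12 with families summed, where 28 were tested, and 17 with a trend removed or size factors of DESeq2. Over all genes tested, the 2421 higher and 2192 lower became 3858 and 1008 with scaling by library size alone. With limma they became 3261 and 761 on log2(TPM + 1), and 3264 and 768 on log2(TPM + 0.1). The 2 genes past the 2-fold threshold became 1 with scaling by library size alone, with either limma fit and with families summed, and 4 with a trend on expression level removed. The median of -0.27 became -0.15 with scaling by library size alone, -0.14 with limma on log2(TPM + 1) and -0.15 on log2(TPM + 0.1); in these 3 settings the median of all genes also rose, to 0.13, 0.12 and 0.13. Leaving out each library in turn gave 2 to 4 genes higher, 12 to 17 lower, 1 to 4 past the 2-fold threshold (1 without M5 replicate 2, 4 without M5 replicate 4; without M5_O5 replicate 1 the 2 were LCE3E and CALML5) and medians of -0.31 to -0.25.

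The calls of IVL, CSTA, SPRR1B, SPRR2A, SPRR2D, SPRR2E, LCE3D, LCE3E, FLG, DMKN and LYPD3 held under every alternative that could be run for them, whereas CNFN was lost under 10 of 19, CASP14 and LY6D under 9 of 19 and ELOVL4 under 5 of 18. With the replicate number of the titles as a block, 3 genes were higher and 18 lower, with TGM1 (adjusted p = 0.00413), SCEL (0.011) and CALML5 (0.0283) gained and CNFN lost (0.0589), and the genes called over the whole table went from 2421 higher and 2192 lower to 2703 and 2552. The deviations of same-numbered libraries correlated at 0.21, 0.099, -0.0036 and 0.013, so the numbers were not taken as pairing. Depth limits the 11 listed genes that were not tested, which had at most 11 counts in any library, and differences in them were not detectable.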
